A study of Mus musculus with 12 samples.

Results

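The comparison described here set arthritic mice given an agonistic antibody to SIRPa, clone 6F2, against arthritic mice given anti-gp120 as a control antibody, over all genes in the joint. It used 8 of the 12 libraries, 4 per antibody, chosen by their labels alone, and the other 4 libraries, from naive mice given anti-gp120, served as background and helped to estimate the spread. All 8 arthritic mice had received K/BxN serum and were taken at day 7, so serum transfer and time did not differ between the groups. Each library was total RNA of the paw joint of 1 mouse. Strain, genotype, age, sex and the doses of serum and antibody are not stated in the sources used. The groups are called controls and anti-SIRPa mice below. The digits 1 to 4 are used only to name animals, since the labels do not say that they pair them.

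SIRPa is an inhibitory receptor on macrophages, monocytes, neutrophils and dendritic cells. It binds CD47 on other cells and, through tyrosine motifs in its tail, recruits the phosphatases SHP-1 and SHP-2 (genes Ptpn6 and Ptpn11), which dampen signals from activating receptors such as those for the Fc part of antibodies. In K/BxN serum transfer, antibodies to glucose-6-phosphate isomerase settle on joint surfaces and start an arthritis driven by immune complexes, complement, Fc receptors and neutrophils, followed by synovial growth and erosion of cartilage and bone. An agonistic antibody is meant to switch the inhibitory receptor on.

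The libraries held joint tissue, with muscle and variable amounts of skin. The synovial lubricant Prg4 was at 5475 to 10160 CPM (library counts scaled to a common total), and the cartilage proteins Comp and Acan at 402 to 670 and 32.5 to 184 CPM. Bone and osteoclast markers were found too, with Ibsp at 55.3 to 285 CPM, Dmp1 at 6.28 to 19.4 and Sp7 at 4.055 to 9.59. The osteoclast genes Ctsk and Acp5 were at 48.5 to 374 and 6.82 to 85.4 CPM. Only the bone marker Bglap, at 0 in 2 libraries, and the osteoclast receptor Calcr, at 0 in 1, were missing anywhere. Total counts were 6893969 to 13416033 in controls, with control 2 lowest, and 13791454 to 17597920 in anti-SIRPa mice, and 3 counts, taken as the detection floor, equalled 0.17 to 0.435 CPM. The lincRNA Gm26917 took 5.64 ± 2.39% of counts in controls and 1.92 ± 0.398% in anti-SIRPa mice (SD, n = 4 each; exact two-sided permutation test, p = 0.0286, the smallest that 4 against 4 allows, 0.0667 adjusted over 7 library properties). Genes of smell and taste receptors held 0.0585% and 0.0234% of counts in controls 2 and 4 and at most 0.00315% in the other 6. Epidermal genes held 2.45% in anti-SIRPa 4 and at most 0.0442% in the other anti-SIRPa mice. The part of these differences in the results below was not tested, except where a value without a library is given.

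The genes that fell with anti-SIRPa included chemokines, proteases and collagens, and those that rose included genes of muscle, cartilage and fat. With edgeR's quasi-likelihood test on all 12 libraries, 548 of 16674 tested genes passed a Benjamini-Hochberg adjusted p of 0.05 (3.29%). These are called genes below, and rose or fell is said only of them. Of these, 265 rose (1.59%) and 283 fell (1.70%), and 299 changed at least 2-fold (1.79%). Every anti-SIRPa mouse lay outside the range of the controls for 431 of the called genes, which are 2.58% of those tested. Over all tested genes, called or not, every anti-SIRPa mouse was above every control for 863 (5.18%) and below for 804 (4.82%). The median log2 fold change over all tested genes was -0.03.

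**Figure D1:**
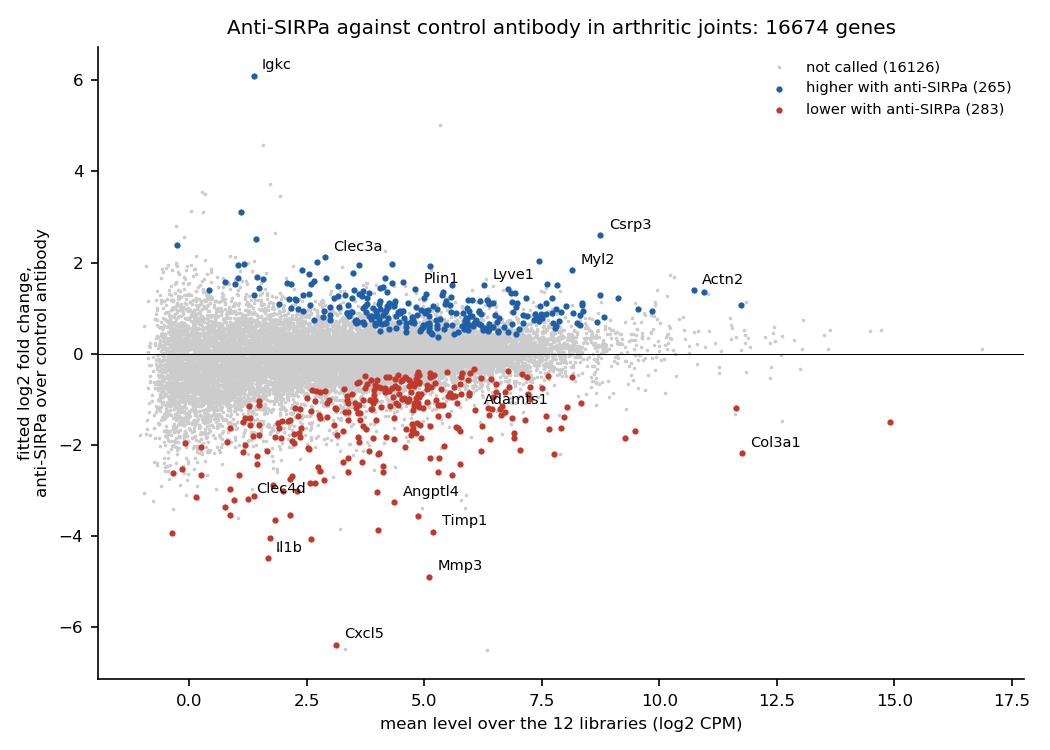
Each point is 1 of 16674 tested genes, with its mean level over the 12 libraries in log2 CPM on the x axis and its fitted log2 fold change, anti-SIRPa over control antibody, on the y axis. The 265 genes that rose are blue and the 283 that fell are red. The lowest called value is -6.38 for Cxcl5, and the highest, 6.10 for Igkc, belongs to a gene with 4 counts in all controls; the increases include highly expressed muscle genes such as Csrp3 and Actn2.

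The number of calls depended on single mice. Without anti-SIRPa 1, anti-SIRPa 2 or the naive libraries as a group, edgeR called 0 genes (3277, 3150 and 3284 at an unadjusted p under 0.05), and without control 3 or control 4 it called 1 each, Plin1 and Ddit4. Without control 2 it called 48, without anti-SIRPa 3 144, and without naive 1, 2 or 3 173, 173 and 232, whereas without control 1 it called 3976. DESeq2 on all 12 libraries called 1892. No gene was called in each of the 12 fits that left out 1 mouse, and 45 were called in 8 of them, the most reached, 29 higher and 16 lower. Where 4 values per group are printed below, they follow the order of mice 1 to 4. Changes are fitted log2 fold changes ± SE with the edgeR adjusted p, and for called genes also with the number of these 12 left-out fits that called the gene. Every rise or fall reported has the limit given here.

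**Figure D2:**
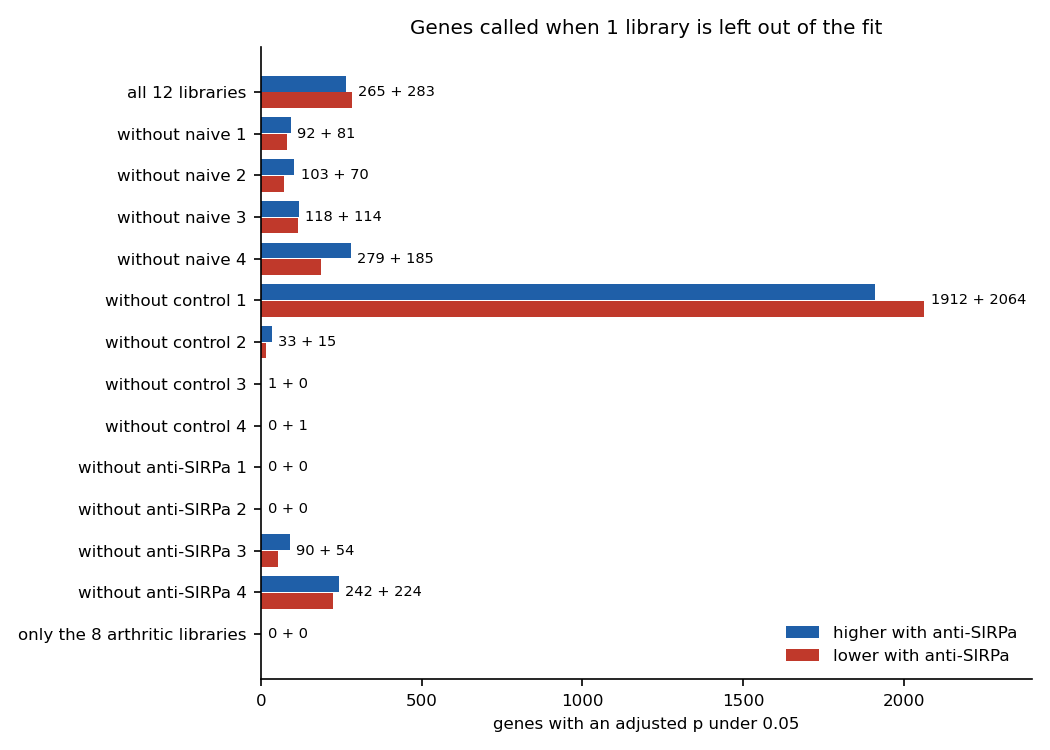
Bars give the number of genes with an adjusted p under 0.05 that were higher (blue) or lower (red) with anti-SIRPa, in the fit of all 12 libraries, in each fit without 1 library and in a fit of the 8 arthritic libraries. Counts were 265 and 283 with all libraries, 1912 and 2064 without control 1, and 0 and 0 without anti-SIRPa 1 or anti-SIRPa 2.

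Control 1 was the control nearest to the anti-SIRPa mice for most called genes, and for some of them it lay within their range. Among the 283 genes that fell, control 1 was the control nearest to the anti-SIRPa mean for 245, against 13, 8 and 17 for controls 2, 3 and 4. Among the 265 that rose, it was nearest for 203, against 18, 16 and 28. On the other side, anti-SIRPa 3 was nearest to the control mean for 106 and anti-SIRPa 4 for 99 of the genes that fell, and for 111 and 103 of those that rose. The labels do not say how severe the arthritis of any mouse was.

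The upstream sequences of 4 genes whose levels are given below are shown first. They were chosen because they hold a short motif known from inflammatory or muscle genes. They are the 250 bases before the start of the RefSeq gene model on GRCm38, read 5′ to 3′ on the gene's strand, from a table that held 11231 of the tested genes. Capitals mark a kappa-B consensus, the binding motif of NF-kB, in the chemokine genes Cxcl1 and Cxcl2, an AP-1 motif (TGANTCA) in the stromelysin gene Mmp3, and a MEF2 motif in the muscle gene Myoz2.
Cxcl1, chr5:90890995-90891244, plus strand: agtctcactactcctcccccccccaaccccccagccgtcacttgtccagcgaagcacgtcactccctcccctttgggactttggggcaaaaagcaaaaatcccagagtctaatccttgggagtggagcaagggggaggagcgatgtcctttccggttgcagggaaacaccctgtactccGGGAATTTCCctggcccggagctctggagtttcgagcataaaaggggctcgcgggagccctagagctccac
Cxcl2, chr5:90903649-90903898, plus strand: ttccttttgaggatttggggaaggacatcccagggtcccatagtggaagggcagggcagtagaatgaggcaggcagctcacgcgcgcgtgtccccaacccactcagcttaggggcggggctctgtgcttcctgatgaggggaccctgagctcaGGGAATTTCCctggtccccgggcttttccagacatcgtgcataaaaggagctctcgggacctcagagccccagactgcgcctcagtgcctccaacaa
Mmp3, chr9:7445572-7445821, plus strand: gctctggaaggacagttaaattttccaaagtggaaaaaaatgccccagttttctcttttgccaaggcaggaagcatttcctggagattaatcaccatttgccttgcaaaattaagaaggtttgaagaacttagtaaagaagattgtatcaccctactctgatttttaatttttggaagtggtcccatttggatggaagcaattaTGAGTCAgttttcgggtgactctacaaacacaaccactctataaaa
Myoz2, chr3:123034988-123035237, minus strand: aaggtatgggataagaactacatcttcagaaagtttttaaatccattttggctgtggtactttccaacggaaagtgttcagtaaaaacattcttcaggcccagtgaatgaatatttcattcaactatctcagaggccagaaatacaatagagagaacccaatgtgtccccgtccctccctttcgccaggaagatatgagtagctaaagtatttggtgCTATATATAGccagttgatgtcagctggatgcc
The motifs began 71, 97, 46 and 33 bases upstream of the starts, and Cxcl1 and Cxcl2 carried the same 10 letters, GGGAATTTCC. Both strands were searched, and no match overlapped another motif in these 4 windows. Over all 11231 windows the kappa-B consensus was found in 5.96%, the AP-1 motif in 4.61% and the MEF2 motif in 0.525%. Among the 193 windows of genes that fell the shares were 6.22%, 5.18% and 0%, and among the 202 of genes that rose they were 4.95%, 5.45% and 1.98%. The kappa-B and AP-1 shares of the genes that fell were thus close to those of all genes, and the MEF2 share of the genes that rose rested on 4 windows.

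The antibody's target and its partners come first. Sirpa (chromosome 2, 129592835 to 129632228, GRCm38) was at 62.9, 155, 172 and 123 CPM in controls, 95.7, 86.1, 88.9 and 90.5 in anti-SIRPa mice and 64 to 87.5 in naive mice. Anti-SIRPa mice lay within the range of the controls, since control 1 was below all of them and controls 2 to 4 above, and the difference of -0.51 ± 0.23 did not pass (adjusted p = 0.2). The antibody acts on the protein, so the level of Sirpa RNA does not check the treatment. Its ligand Cd47 (-0.21 ± 0.15, adjusted p = 0.382), the phosphatase SHP-1 gene Ptpn6 (-0.56 ± 0.20, adjusted p = 0.109) and the SHP-2 gene Ptpn11 (0.12 ± 0.11, adjusted p = 0.55) did not pass either. Ptpn6 was at 14.6, 23.2, 32.9 and 23.5 CPM in controls, 16.3, 13.9, 16.1 and 17.8 in anti-SIRPa mice and 11.5 to 13.3 in naive mice, so that control 1 again lay among the anti-SIRPa mice. Of 11 tested genes of the SIRP axis and other inhibitory receptors of myeloid cells, 0 rose and 0 fell, and their median log2 fold change was -0.51 (-0.72 without control 1 to -0.34 without control 3), against -0.03 over all genes; 5 had an unadjusted p under 0.05 and DESeq2 called 0. In bulk tissue, fewer cells of a type and less RNA per cell cannot be told apart, here and for every cell type list below.

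Of the tested genes of neutrophil-attracting chemokines and their receptors, Cxcl5 and Cxcl1 fell with anti-SIRPa. Cxcl5, made by stromal and epithelial cells (chromosome 5, 90759360 to 90761624), was at 2.81, 45.1, 37.7 and 18.1 CPM in controls, 0.0588, 0.580, 0.433 and 0.170 in anti-SIRPa mice and 0 to 0.211 in naive mice. Every anti-SIRPa mouse was below every control, and control 1 was the lowest control. Its change was -6.38 ± 0.91 (adjusted p = 0.0158, 8 of 12 left-out fits). Cxcl1, another ligand of the neutrophil receptor CXCR2 and the first of the kappa-B windows above, was at 1.32, 10.8, 15.8 and 7.22 CPM in controls, 0.646, 1.35, 0.578 and 2.15 in anti-SIRPa mice and 0.122 to 0.460 in naive mice. Here control 1 lay below anti-SIRPa 2 and anti-SIRPa 4, so the groups overlapped, while controls 2 to 4 were above all anti-SIRPa mice; the change was -2.87 ± 0.64 (adjusted p = 0.0375, 3 of 12 left-out fits). Cxcl2, with the same kappa-B letters, was at 0.744, 2.63, 1.66 and 0.866 CPM in controls and 0, 0.322, 0.0722 and 0.340 in anti-SIRPa mice, below every control in every anti-SIRPa mouse but just missing the threshold (-2.90 ± 0.79, adjusted p = 0.0581). In all, 2 of 5 tested members of this list fell and 0 rose, with a median of -2.87 (-3.28 without anti-SIRPa 4 to -2.50 without anti-SIRPa 1).

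Among the CC chemokines and their receptors, Ccl2, Ccl7 and Ccl8 fell and Ccl11 and Ccl24 rose. Ccl7, a monocyte attractant, was at 2.89, 15.6, 30.1 and 16 CPM in controls, 1.65, 3.799, 1.23 and 2.38 in anti-SIRPa mice and 0.307 to 0.703 in naive mice, a change of -2.83 ± 0.57 (adjusted p = 0.0319, 4 of 12 left-out fits). Only control 1 overlapped the anti-SIRPa mice. Ccl2, a second monocyte attractant (chosen after its values were seen), changed by -1.77 ± 0.45 (adjusted p = 0.0489, 1 of 12 left-out fits), with control 1, at 2.07 CPM, below the anti-SIRPa mice. Ccl8, also chosen after its values were seen, changed by -2.74 ± 0.66 (adjusted p = 0.0453, 1 of 12 left-out fits). In the other direction, the eosinophil attractant Ccl11 was at 8.52, 0.919, 3.47 and 5.56 CPM in controls, 18.5, 14.6, 21.7 and 17.3 in anti-SIRPa mice and 9.89 to 16.2 in naive mice, every anti-SIRPa mouse being above every control and 3 of them above all naive mice. It changed by 1.94 ± 0.43 (adjusted p = 0.0378, 4 of 12 left-out fits). Ccl24, also a ligand of the eosinophil receptor CCR3, was at 1.902, 1.31, 1.28 and 1.52 CPM in controls, 4.47, 4.57, 2.82 and 4.47 in anti-SIRPa mice and 1.34 to 3.52 in naive mice. All 4 anti-SIRPa mice were above all 4 controls, and anti-SIRPa 3 was the lowest of them; the change was 1.43 ± 0.33 (adjusted p = 0.0395, 4 of 12 left-out fits). Of 12 tested members 2 rose and 3 fell, with a median of -0.74 (-0.99 without control 1 to -0.33 without control 3). The highest fold change of the list, 3.55, was that of a member that did not pass.

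Interleukin 1 beta and the oncostatin M receptor were the cytokine genes with the smallest p. Il1b (chromosome 2, 129364570 to 129371139) was at 1.08, 9.98, 18.7 and 6.14 CPM in controls, 0, 0.902, 0.217 and 0.453 in anti-SIRPa mice and 0 to 0.0702 in naive mice. The anti-SIRPa mice were all below the controls and had 25 counts together, against 422 in the controls. It changed by -4.49 ± 0.93 (adjusted p = 0.0338, 3 of 12 left-out fits). Osmr, through which oncostatin M acts on stromal cells, was at 23.2, 40.7, 57.9 and 43.2 CPM in controls, 19, 20.9, 19.8 and 18.3 in anti-SIRPa mice and 19.1 to 23.3 in naive mice, so that the anti-SIRPa mice lay within or just below the naive range and below all controls; the change was -1.08 ± 0.20 (adjusted p = 0.0262, 6 of 12 left-out fits). Of 18 tested cytokine and receptor genes 3 fell and 0 rose, with a median of -0.48 (-0.79 without control 1 to -0.39 without anti-SIRPa 3).

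The list of NF-kB feedback and early response regulators gave the most calls of any list. Of its 22 members 12 were lower and 1 higher, against 1.70% and 1.59% of all genes. Not all of the members belong to NF-kB signalling. They were chosen with earlier results of these data known, so the count is not a test of the list. Their median was -0.82 (-0.89 without control 1 to -0.67 without control 3). Nfkbiz, an inducible nuclear co-factor of NF-kB, was at 22.3, 43.9, 34.1 and 29.6 CPM in controls, 10.7, 15.3, 16.2 and 16.3 in anti-SIRPa mice and 9.27 to 11.2 in naive mice. All anti-SIRPa mice were below all controls, and 3 of them were above all naive mice. The change was -1.15 ± 0.20 (adjusted p = 0.0193, 8 of 12 left-out fits). The NF-kB subunit Relb was at 12.7, 29.8, 28.6 and 23.7 CPM in controls and 12.2, 8.24, 9.46 and 11.1 in anti-SIRPa mice, with control 1 only just above the highest anti-SIRPa mouse, and changed by -1.20 ± 0.23 (adjusted p = 0.0271, 6 of 12 left-out fits). Bcl3, a nuclear IkB protein, was at 5.62, 28, 38.7 and 17.4 CPM in controls and 5.17, 5.22, 3.54 and 4.303 in anti-SIRPa mice, with the same order of control 1, and changed by -2.29 ± 0.44 (adjusted p = 0.0291, 6 of 12 left-out fits). The AP-1 subunit Fosl1 changed by -2.96 ± 0.57 (adjusted p = 0.0265, 6 of 12 left-out fits); control 1, at 0.579 CPM, was level with the anti-SIRPa mice. The IkB alpha gene Nfkbia (-0.88 ± 0.18 (adjusted p = 0.0314, 6 of 12 left-out fits)) and the transcription factor gene Cebpb (-0.76 ± 0.15 (adjusted p = 0.0289, 6 of 12 left-out fits)), both chosen after their values were seen, also fell, with no overlap between the groups. The member that rose was Dusp1, a phosphatase of MAP kinases and likewise chosen after its values were seen. It was at 63.4, 50.4, 38.8 and 42.5 CPM in controls, 65.7, 92.1, 71 and 88.7 in anti-SIRPa mice and 40.6 to 59.9 in naive mice, so that each anti-SIRPa mouse was above all 8 other mice, and changed by 0.70 ± 0.18 (adjusted p = 0.0472, 2 of 12 left-out fits).

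Acute phase and antiprotease genes had a negative median with calls in both directions. Slpi, an inhibitor of neutrophil elastase, was at 1.08, 15.5, 10.2 and 9.39 CPM in controls, 0.235, 0.580, 0.866 and 0.510 in anti-SIRPa mice and 0 to 0.773 in naive mice, with every anti-SIRPa mouse below every control; it changed by -4.03 ± 0.84 (adjusted p = 0.0338, 4 of 12 left-out fits). Ptx3, a soluble pattern recognition protein, changed by -2.46 ± 0.53 (adjusted p = 0.0382, 2 of 12 left-out fits), with control 1, at 7.28 CPM, within the anti-SIRPa range of 5.77 to 8.11 CPM. Ceruloplasmin (Cp), a copper-carrying ferroxidase, went the other way and was at 55.3, 31, 37.8 and 48.7 CPM in controls and 62.5, 78.7, 70.5 and 70.5 in anti-SIRPa mice, above every control in every anti-SIRPa mouse (0.71 ± 0.17 (adjusted p = 0.04, 2 of 12 left-out fits)). Of 10 tested members 2 fell and 1 rose, with a median of -1.32 (-1.62 without control 1 to -1.06 without control 3). Among 15 enzymes of eicosanoid and oxidant production, 2 rose and 0 fell, and the median was -0.31 (-0.51 without control 1 to -0.18 without anti-SIRPa 3). Ptgis, which makes prostacyclin, was at 19.5, 20.2, 19.9 and 19.1 CPM in controls, 32.6, 31, 28.5 and 35.7 in anti-SIRPa mice and 22.6 to 33.2 in naive mice. The controls spanned less than 2 CPM and all anti-SIRPa mice were above them; the change was 0.70 ± 0.13 (adjusted p = 0.0237, 7 of 12 left-out fits). Alox5, the first enzyme of leukotriene synthesis, was at 12.9, 11.7, 15 and 12 CPM in controls and 41.1, 26.1, 14.3 and 34 in anti-SIRPa mice and changed by 1.16 ± 0.24 (adjusted p = 0.0314, 6 of 12 left-out fits), with anti-SIRPa 3 level with the controls.

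Receptors for immune complexes showed no called change. Of 12 tested Fc receptor and kinase genes, 0 rose and 0 fell by edgeR, although all 12 fold changes were below 0 and the median was -0.83 (-1.08 without control 1 to -0.62 without control 3). Of the 12, 8 had an unadjusted p under 0.05 and DESeq2 called 4. The high-affinity receptor Fcgr1 was at 3.31, 10.1, 18.6 and 12.7 CPM in controls and 3.35, 2.96, 5.27 and 6.23 in anti-SIRPa mice (-1.33 ± 0.42, adjusted p = 0.0849), and the common signalling chain Fcer1g at 7.44, 24.3, 26.8 and 21.2 CPM in controls and 14.9, 11.1, 7.003 and 11.3 in anti-SIRPa mice (-0.84 ± 0.33, adjusted p = 0.142; chosen after its values were seen). In both, controls 2 to 4 were above all anti-SIRPa mice and control 1 lay among them. Of 17 complement genes 1 rose and 1 fell, with a median of -0.36 (-0.56 without control 1 to -0.22 without control 3). Factor B (Cfb), which drives the alternative pathway, was at 3.64, 11.2, 13.4 and 9.24 CPM in controls and 1.41, 2.51, 1.66 and 3.96 in anti-SIRPa mice and changed by -1.96 ± 0.40 (adjusted p = 0.0295, 6 of 12 left-out fits); control 1 was below anti-SIRPa 4. Cd55, which breaks up complement convertases and is abundant in the synovial lining, was at 56, 19, 25.8 and 33.3 CPM in controls, 77, 84.3, 66.6 and 74.5 in anti-SIRPa mice and 63.4 to 85 in naive mice, above all controls in all anti-SIRPa mice and within the naive range, and changed by 1.17 ± 0.25 (adjusted p = 0.0347, 3 of 12 left-out fits).

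Markers of infiltrating myeloid cells had negative medians with few calls. Of 7 tested mature neutrophil genes, 5 had fold changes below 0 and 2 above. Their mean log2 CPM was 0.77, 2.54, 2.26 and 1.45 in controls and 0.42, 0.23, 1.03 and 0.34 in anti-SIRPa mice. Control 1 was thus below anti-SIRPa 3. Of the 7, 1 fell and 0 rose, with a median of -1.45 (-2.16 without anti-SIRPa 4 to -1.09 without control 3). That gene was Clec4d, a C-type lectin receptor of neutrophils and macrophages, at 1.24, 6.83, 10.2 and 5.42 CPM in controls, 0.353, 0.515, 1.16 and 0.566 in anti-SIRPa mice and 0.281 to 0.492 in naive mice; every anti-SIRPa mouse was below every control, and it changed by -3.19 ± 0.55 (adjusted p = 0.0193, 7 of 12 left-out fits). None of 15 monocyte and macrophage genes passed by edgeR, with a median of -0.90 (-1.13 without control 1 to -0.52 without control 3), although 10 had an unadjusted p under 0.05 and DESeq2 called 5. Their gene with the smallest p, Ms4a7, was at 2.07, 9.46, 10.8 and 8.81 CPM in controls and 2.47, 2.77, 3.32 and 2.32 in anti-SIRPa mice (-1.51 ± 0.40, adjusted p = 0.0537). Control 1 alone was below every anti-SIRPa mouse. Among 12 resident macrophage genes 1 rose and 0 fell, with a median of 0.11 (-0.01 without control 1 to 0.21 without anti-SIRPa 4). It was Lyve1, a hyaluronan receptor of lymphatic vessels and of a subset of tissue macrophages, at 34.6, 25.1, 33.4 and 48.2 CPM in controls, 136, 112, 46.5 and 107 in anti-SIRPa mice and 80.3 to 103 in naive mice. It changed by 1.51 ± 0.28 (adjusted p = 0.0271, 7 of 12 left-out fits); 3 anti-SIRPa mice were above 100 CPM, and anti-SIRPa 3 was below control 4.

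Granulocyte precursor genes of marrow gave no edgeR call and had fold changes in both directions. Ngp, a granule protein of immature neutrophils, was at 1.32, 0.657, 0.151 and 1.08 CPM in controls and 6.88, 6.25, 20.8 and 2.26 in anti-SIRPa mice, and myeloperoxidase (Mpo) at 1.41, 0.919, 0.0755 and 0.144 CPM in controls and 5.46, 6.12, 19.4 and 1.93 in anti-SIRPa mice. Both were above all controls in all anti-SIRPa mice without passing (3.47 ± 0.86, adjusted p = 0.0509, and 3.73 ± 1.06, adjusted p = 0.0703). The 6 tested genes of granulocyte precursors had 0 calls by edgeR and a median of 2.89 (2.08 without anti-SIRPa 3 to 3.24 without control 1). Every anti-SIRPa mouse was above every control for 3 of them, against 5.18% of all tested genes. These 3, Ngp, Mpo and Camp, were all highest in anti-SIRPa 3. Of the 6, 4 had an unadjusted p under 0.05 and DESeq2 called 3. Lactoferrin (Ltf) overlapped between the groups, and the other two members, Lcn2 (-1.20 ± 0.56, adjusted p = 0.207) and Chil3 (-0.25 ± 0.75, adjusted p = 0.872), both chosen after their values were seen, had negative fold changes, that of Chil3 turning positive without control 3, anti-SIRPa 2 or anti-SIRPa 4. The list's mean log2 CPM was 0.26, 0.77, -0.36 and -0.30 in controls and 1.85, 1.48, 3.18 and 0.51 in anti-SIRPa mice, with anti-SIRPa 4 below control 2.

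Immunoglobulin, globin and Kit transcripts had the same highest mouse. Igkc, the kappa light chain constant region, was at 0.331, 0, 0 and 0 CPM in controls, 8.29, 3.99, 10.8 and 2.77 in anti-SIRPa mice and 0.304 to 0.983 in naive mice, which is 4 counts in all controls, all in control 1, against 402 in the anti-SIRPa mice. Its call (adjusted p = 0.0158, 8 of 12 left-out fits) gives a direction only, since a fitted fold change against so few counts depends on the prior count. Ighm, the IgM heavy chain, was at 3.72, 4.597, 3.55 and 4.48 CPM in controls and 10.8, 9.27, 23.8 and 7.59 in anti-SIRPa mice and rose by 1.65 ± 0.41 (adjusted p = 0.0481, 3 of 12 left-out fits). Of 7 tested B and plasma cell genes these 2 rose and 0 fell, with a median of 0.26 (0.19 without control 1 to 1.69 without control 2). Kit, the stem cell factor receptor of mast cells and marrow progenitors, was at 4.22, 8.67, 7.03 and 6.93 CPM in controls, 14.5, 10.4, 27 and 14 in anti-SIRPa mice and 5.52 to 7.45 in naive mice. Each anti-SIRPa mouse was above all 8 other mice; it changed by 1.30 ± 0.28 (adjusted p = 0.0341, 5 of 12 left-out fits) and was the 1 called gene of 6 tested mast cell genes (median 1.08 (0.93 without anti-SIRPa 3 to 1.31 without control 3)). The beta globin Hbb-bs was at 3.64, 0.919, 3.32 and 2.45 CPM in controls and 9.87, 6.05, 19.3 and 7.64 in anti-SIRPa mice and changed by 2.02 ± 0.40 (adjusted p = 0.0292, 6 of 12 left-out fits). Erythroid genes held 0.00266 ± 0.00126% of counts in anti-SIRPa mice and 0.0011 ± 0.000255% in controls (exact two-sided permutation test, n = 4 each, p = 0.0286, 0.0667 adjusted over 7 library properties). Ngp, Mpo, Igkc, Ighm, Kit and Hbb-bs were all highest in anti-SIRPa 3, and whether the amount of marrow in the sample had a part in their levels was not tested. Reads of globins and immunoglobulin genes can be shared between near-identical copies.

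Cell cycle genes were lower without passing in most cases. All 24 fold changes were below 0, with a median of -1.62 (-2.32 without anti-SIRPa 4 to -1.32 without anti-SIRPa 2), and 2 genes fell. The replication licensing gene Mcm7 was at 11.1, 13, 21.5 and 10.8 CPM in controls, 6.11, 5.09, 6.71 and 6.45 in anti-SIRPa mice and 4.52 to 6.33 in naive mice, with no overlap, and changed by -1.21 ± 0.23 (adjusted p = 0.0262, 7 of 12 left-out fits). Cenpa, the centromeric histone, was at 3.56, 6.04, 10.2 and 6.28 CPM in controls and 1.65, 1.29, 1.73 and 3.68 in anti-SIRPa mice. It changed by -1.64 ± 0.41 (adjusted p = 0.047, 2 of 12 left-out fits), with control 1 just below anti-SIRPa 4. The mean log2 CPM of the list was 2.29, 3.90, 4.09 and 3.39 in controls and 1.39, 1.004, 1.83 and 3.12 in anti-SIRPa mice. Anti-SIRPa 4, the highest of its group, was also the library with the largest epidermal share, and the part of skin in this value was not tested beyond the median without that mouse.

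Several enzymes that break down cartilage and bone matrix fell with anti-SIRPa, together with the inhibitor Timp1. Mmp3, stromelysin 1, which cleaves proteoglycans and activates other proteases (chromosome 9, 7445822 to 7455975), was at 10.3, 124, 184 and 70.8 CPM in controls, 2.41, 1.93, 4.19 and 4.59 in anti-SIRPa mice and 1.92 to 2.496 in naive mice. All anti-SIRPa mice were below all controls, and control 1 was nearer to them than to the other controls. The change was -4.89 ± 0.76 (adjusted p = 0.0239, 7 of 12 left-out fits). The aggrecanase Adamts4 was at 1.41, 25.6, 26 and 11.3 CPM in controls and 1.12, 0.451, 1.37 and 0.906 in anti-SIRPa mice, and its 4 anti-SIRPa values did not reach control 1; it changed by -4.05 ± 0.71 (adjusted p = 0.0262, 6 of 12 left-out fits). Timp1, an inhibitor of metalloproteinases, was at 14.2, 132, 183 and 64.6 CPM in controls, 6.82, 6.05, 7.07 and 6.398 in anti-SIRPa mice and 3.83 to 6.397 in naive mice. Its anti-SIRPa mice lay within 1.1 CPM of each other and below control 1; the change was -3.90 ± 0.64 (adjusted p = 0.0262, 6 of 12 left-out fits). Adamts1, a protease of versican and aggrecan, was at 62.4, 124, 161 and 101 CPM in controls and 47.6, 52.5, 49.8 and 40.1 in anti-SIRPa mice and changed by -1.24 ± 0.22 (adjusted p = 0.0237, 7 of 12 left-out fits). No anti-SIRPa mouse reached the lowest control. The collagenase Mmp13 (chosen after its values were seen) was at 8.27, 126, 109 and 40.9 CPM in controls and 2.88, 7.79, 8.45 and 4.98 in anti-SIRPa mice, with control 1 below anti-SIRPa 3, and changed by -3.56 ± 0.79 (adjusted p = 0.0448, 1 of 12 left-out fits). In all, 9 of 22 tested members fell and 0 rose, with a median of -1.20 (-1.45 without control 1 to -0.995 without control 3).

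**Figure D3:**
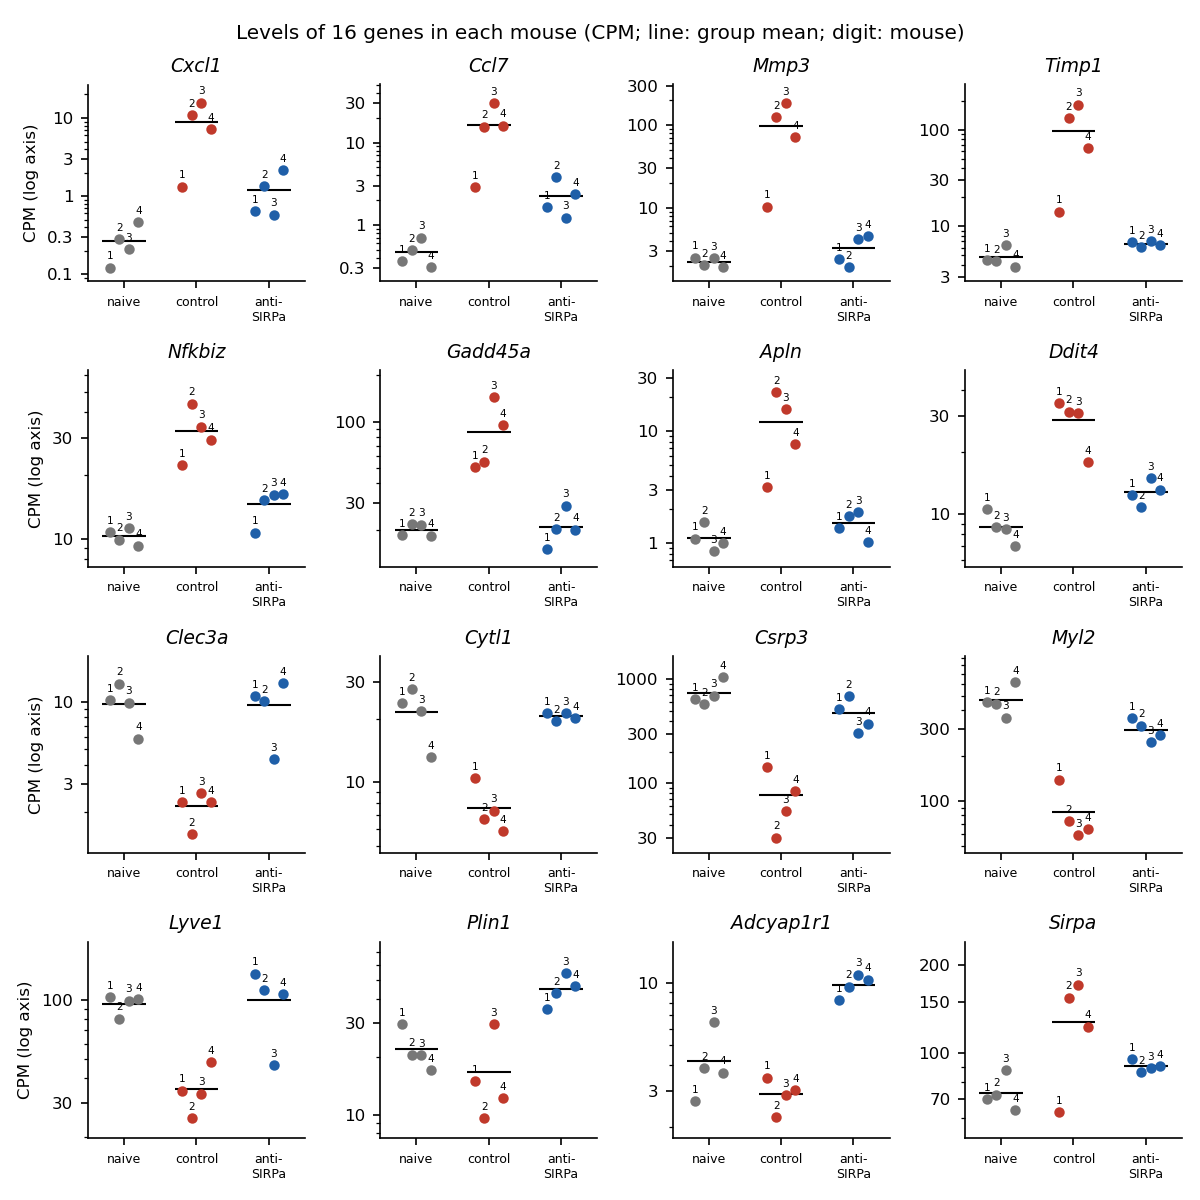
Levels of 16 genes in CPM on log axes, with 1 point per mouse, the digit naming the mouse and the line giving the mean of the 4 mice of the naive (grey), control antibody (red) and anti-SIRPa (blue) groups. For Mmp3, Timp1, Ccl7 and Cxcl1, controls 2 to 4 stood well above all anti-SIRPa mice and control 1 near them, whereas for Ddit4 control 4, at 17.9 CPM, was the lowest control. Plin1 and Adcyap1r1 were higher in every anti-SIRPa mouse than in every naive or control mouse.

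Some collagens of activated fibroblasts and some enzymes that fold and cross-link collagen fell. Col3a1, the type III collagen chain, was at 1712, 11139, 8977 and 6344 CPM in controls, 1274, 1619, 1497 and 1816 in anti-SIRPa mice and 1450 to 2237 in naive mice. Control 1 lay between anti-SIRPa 2 and anti-SIRPa 4, and the other controls were well above all anti-SIRPa mice. It changed by -2.18 ± 0.42 (adjusted p = 0.0271, 6 of 12 left-out fits). Col5a2 (-1.84 ± 0.37 (adjusted p = 0.0302, 6 of 12 left-out fits)) had the same overlap by control 1 alone, and Col12a1, a fibril-associated collagen, had none, at 119, 651, 621 and 402 CPM in controls and 79.9, 92.3, 112 and 108 in anti-SIRPa mice (-2.19 ± 0.43 (adjusted p = 0.0314, 4 of 12 left-out fits)). Of 24 genes of this list 6 fell and 0 rose, with a median of -0.97 (-1.19 without control 1 to -0.79 without control 2). Of 21 collagen folding and crosslinking genes 7 fell and 0 rose, all fold changes were below 0 and the median was -0.66 (-0.82 without control 1 to -0.55 without control 3). Plod2, a lysyl hydroxylase, was at 20.7, 75.1, 99.5 and 53.7 CPM in controls, 19.7, 21.7, 21.2 and 20.9 in anti-SIRPa mice and 19.9 to 23.8 in naive mice. Its change was -1.58 ± 0.34 (adjusted p = 0.0378, 1 of 12 left-out fits), with control 1 level with the anti-SIRPa and naive mice. The prolyl hydroxylase P3h3 changed by -0.99 ± 0.22 (adjusted p = 0.0376, 3 of 12 left-out fits). All of these 7 genes overlapped between the groups.

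Genes of synovial fibroblasts went both ways, 4 higher and 4 lower of 17, with a median of 0.04 (-0.03 without control 1 to 0.12 without control 4). Podoplanin (Pdpn), a surface protein of activated lining fibroblasts, was at 19.4, 59.8, 69.2 and 51 CPM in controls and 18.6, 18.1, 16.3 and 15.4 in anti-SIRPa mice, with no overlap, and changed by -1.54 ± 0.31 (adjusted p = 0.0314, 5 of 12 left-out fits). Tnfaip6, a hyaluronan-binding protein that inflammation induces, was at 3.89, 57.4, 81.4 and 30.8 CPM in controls and 4.23, 2.96, 2.82 and 1.87 in anti-SIRPa mice (chosen after its values were seen). Control 1 was below anti-SIRPa 1, and the change was -3.86 ± 0.80 (adjusted p = 0.0376, 1 of 12 left-out fits). Tspan15, a tetraspanin that guides the protease ADAM10, was at 18.4, 15.5, 14.3 and 21.4 CPM in controls, 26.5, 31.2, 27.1 and 31.4 in anti-SIRPa mice and 31.6 to 35.3 in naive mice, above all controls in all anti-SIRPa mice and below all naive mice. It changed by 0.74 ± 0.13 (adjusted p = 0.0237, 7 of 12 left-out fits).

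Of 15 tested cartilage genes 4 rose and 0 fell, with 10 fold changes above 0, 5 below and a median of 0.55 (0.32 without anti-SIRPa 3 to 0.78 without control 2). The lowest fold change was that of aggrecan (Acan), the main cartilage proteoglycan, which did not pass (-1.49 ± 0.42, adjusted p = 0.0699; chosen after its values were seen), and Comp, Hapln1, Sox9 and Cnmd were also below 0 without passing. The summed level of the list, with Comp the most abundant member, had a median of 931 CPM in anti-SIRPa mice and 1046 CPM in controls. Clec3a, a lectin found in cartilage, was at 2.32, 1.44, 2.64 and 2.31 CPM in controls, 10.9, 10.05, 4.33 and 13.1 in anti-SIRPa mice and 5.83 to 13 in naive mice, above all controls in all anti-SIRPa mice, and changed by 2.12 ± 0.34 (adjusted p = 0.0158, 8 of 12 left-out fits). Cytl1, a secreted protein of chondrocytes, was at 10.4, 6.699, 7.33 and 5.85 CPM in controls, 21.2, 19.4, 21.2 and 20.1 in anti-SIRPa mice and 13.1 to 27.5 in naive mice. Its anti-SIRPa mice lay within 2 CPM of each other, above all controls; it changed by 1.43 ± 0.22 (adjusted p = 0.0158, 8 of 12 left-out fits). Col10a1, the collagen of hypertrophic cartilage, was at 6.45, 7.22, 5.67 and 4.48 CPM in controls and 10.9, 11.4, 23.1 and 16.7 in anti-SIRPa mice and changed by 1.39 ± 0.27 (adjusted p = 0.0265, 6 of 12 left-out fits). Control 1 was the control nearest to the anti-SIRPa mice for Cytl1 but not for Clec3a or Col10a1.

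A pair of genes of bone resorption fell and 1 gene of bone formation rose. Tnfsf11, which encodes RANKL, the cytokine that drives osteoclast formation, was at 0.827, 14.3, 17.1 and 5.704 CPM in controls, 0.588, 0.386, 1.01 and 1.02 in anti-SIRPa mice and 0.141 to 0.766 in naive mice. Control 1 lay between the anti-SIRPa mice, and the change was -3.64 ± 0.77 (adjusted p = 0.0347, 3 of 12 left-out fits). Atp6v0d2, a proton pump subunit of osteoclasts, was at 2.56, 27.8, 17.4 and 8.23 CPM in controls and 2.41, 3.48, 2.24 and 1.302 in anti-SIRPa mice. It changed by -2.56 ± 0.58 (adjusted p = 0.04, 1 of 12 left-out fits), again with control 1 among the anti-SIRPa mice. Of 13 tested genes these 2 fell and 0 rose, with a median of -1.07 (-1.33 without control 1 to -0.75 without control 2). Phex, an osteocyte protease that regulates phosphate, was at 3.23, 2.36, 1.74 and 2.45 CPM in controls, 6.23, 5.09, 11.3 and 5.83 in anti-SIRPa mice and 1.92 to 4.85 in naive mice. Every anti-SIRPa mouse was above all 8 other mice, with anti-SIRPa 3 highest; it changed by 1.54 ± 0.34 (adjusted p = 0.0365, 4 of 12 left-out fits) and was the 1 called gene of 11 osteoblast and osteocyte genes (median 0.19 (-0.02 without control 2 to 0.38 without control 4)). Of 21 Wnt, TGF-beta and BMP ligands and antagonists 3 rose and 1 fell, with a median of -0.10 (-0.19 without control 1 to 0.05 without control 2). Tgfb2 was at 57.8, 46, 39.8 and 38.3 CPM in controls, 90.8, 84.2, 83.2 and 75.7 in anti-SIRPa mice and 79.7 to 107 in naive mice and changed by 0.88 ± 0.14 (adjusted p = 0.0158, 8 of 12 left-out fits). The Wnt ligand Wnt2 (1.98 ± 0.45 (adjusted p = 0.0378, 4 of 12 left-out fits)) and Bmp4 (0.67 ± 0.15 (adjusted p = 0.0368, 3 of 12 left-out fits)) also rose, and none of the 3 overlapped between the groups. Among 10 tendon and ligament genes 2 rose, Chodl (1.40 ± 0.31 (adjusted p = 0.0367, 2 of 12 left-out fits)) and the cartilage and tendon matrix gene Cilp2 (1.06 ± 0.24 (adjusted p = 0.0382, 2 of 12 left-out fits)), 0 fell and the median was 0.03 (-0.15 without anti-SIRPa 2 to 0.25 without anti-SIRPa 1).

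Endothelial genes went both ways. Selp, P-selectin, which catches leukocytes on activated vessels, was at 7.77, 25.2, 39.7 and 25.5 CPM in controls, 3.06, 2.58, 7.72 and 2.94 in anti-SIRPa mice and 1.12 to 3.35 in naive mice. Anti-SIRPa 3 was almost level with control 1, and the other 3 anti-SIRPa mice were within the naive range; the change was -2.60 ± 0.52 (adjusted p = 0.0327, 5 of 12 left-out fits). Apelin (Apln), a peptide of sprouting endothelium, was at 3.14, 22.2, 15.6 and 7.58 CPM in controls, 1.35, 1.74, 1.88 and 1.02 in anti-SIRPa mice and 0.844 to 1.55 in naive mice, with no overlap, and changed by -3.01 ± 0.49 (adjusted p = 0.0169, 8 of 12 left-out fits). Cldn5, a tight junction protein of endothelium, was at 5.04, 4.07, 5.51 and 5.199 CPM in controls, 9.75, 9.02, 9.53 and 7.81 in anti-SIRPa mice and 8.499 to 10.8 in naive mice. It rose in all anti-SIRPa mice over all controls, by 0.86 ± 0.16 (adjusted p = 0.0265, 6 of 12 left-out fits). Of 18 tested members 2 rose and 3 fell, with a median of -0.50 (-0.72 without control 1 to -0.26 without control 3).

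Several genes that stress, glucocorticoids or metals induce fell. Ddit4, an inhibitor of mTOR signalling that stress and glucocorticoids induce, was at 34.5, 31.4, 30.8 and 17.9 CPM in controls, 12.4, 10.8, 14.9 and 13.2 in anti-SIRPa mice and 7.05 to 10.6 in naive mice. All controls were above all anti-SIRPa mice, which in turn were above all naive mice, and here control 1 was the highest control. The change was -1.16 ± 0.20 (adjusted p = 0.0193, 8 of 12 left-out fits). The kinase gene Sgk1 was at 136, 137, 145 and 151 CPM in controls, 63.5, 76.6, 115 and 64.8 in anti-SIRPa mice and 45.6 to 56.4 in naive mice and changed by -0.83 ± 0.17 (adjusted p = 0.0289, 6 of 12 left-out fits), with anti-SIRPa 3 nearest to the controls. Metallothionein 1 (Mt1), which binds zinc, was at 43.8, 117, 132 and 105 CPM in controls and 24.1, 28.8, 28.2 and 40.9 in anti-SIRPa mice and changed by -1.70 ± 0.34 (adjusted p = 0.0328, 5 of 12 left-out fits). The zinc importer Slc39a14, among the largest decreases, was at 25.5, 124, 193 and 98.3 CPM in controls and 15.3, 21.2, 16.9 and 16 in anti-SIRPa mice and changed by -2.67 ± 0.46 (adjusted p = 0.0265, 6 of 12 left-out fits). Of 13 glucocorticoid-responsive genes 3 fell and 1, Dusp1, rose, with a median of -0.43 (-0.59 without anti-SIRPa 3 to -0.33 without anti-SIRPa 4). Angptl4, an inhibitor of lipoprotein lipase that fasting and hypoxia induce, was at 8.35, 47.3, 109.7 and 43.6 CPM in controls and 3.41, 3.67, 8.09 and 6.68 in anti-SIRPa mice. It changed by -3.26 ± 0.69 (adjusted p = 0.0383, 2 of 12 left-out fits) and was the 1 called gene of 14 in the glycolysis and hypoxia list, whose median was 0.23 (0.14 without control 2 to 0.32 without anti-SIRPa 4).

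Some muscle genes rose with anti-SIRPa, 6 of them members of the list of stretch-sensing and Z-disc genes, which also holds Apobec2. Csrp3, a protein that links the Z-disc to signalling (chromosome 7, 48830398 to 48848033), was at 142, 29.9, 53.9 and 84.3 CPM in controls, 514, 685, 305 and 375 in anti-SIRPa mice and 575 to 1050 in naive mice. Every anti-SIRPa mouse was above every control, and control 1 was the highest control. It changed by 2.59 ± 0.44 (adjusted p = 0.0237, 8 of 12 left-out fits). Myoz2, a Z-disc protein that binds calcineurin and the gene with the MEF2 motif above, was at 87.7, 32.4, 36.6 and 56 CPM in controls, 151, 146, 123 and 118 in anti-SIRPa mice and 135 to 203 in naive mice and changed by 1.34 ± 0.27 (adjusted p = 0.0305, 6 of 12 left-out fits). The muscle deaminase family member Apobec2 was at 100.2, 31.5, 25.6 and 43.8 CPM in controls and 224, 272, 138 and 189 in anti-SIRPa mice and changed by 2.03 ± 0.39 (adjusted p = 0.0293, 6 of 12 left-out fits). Neither had any overlap between the groups. Of 17 tested genes of this list 6 rose and 0 fell, with a median of 1.13 (0.92 without control 2 to 1.35 without control 1).

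Contraction genes followed with a smaller median. The slow light chain Myl2 was at 138, 72.8, 59.2 and 64.5 CPM in controls, 357, 317, 247 and 275 in anti-SIRPa mice and 358 to 616 in naive mice; all anti-SIRPa mice were above all controls and below all naive mice, and the change was 1.84 ± 0.26 (adjusted p = 0.0158, 8 of 12 left-out fits). Slow troponin C (Tnnc1) changed by 1.23 ± 0.28 (adjusted p = 0.0375, 3 of 12 left-out fits) and alpha-actinin 2 (Actn2), which is also a Z-disc gene, by 1.39 ± 0.32 (adjusted p = 0.0378, 3 of 12 left-out fits). Of 27 contraction genes 4 rose and 0 fell, 26 fold changes were above 0 and the median was 0.52 (0.38 without control 2 to 0.91 without control 1). The contraction list held 25.4 ± 5.03% of counts in anti-SIRPa mice and 21.1 ± 5.23% in controls (SD, n = 4 each; exact two-sided permutation test, p = 0.229). The share of muscle RNA and its part in these changes was not tested further.

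Genes of muscle stress and regeneration did not move as 1 group, with 1 of 18 higher, 2 lower and a median of -0.09 (-0.22 without control 2 to 0.03 without anti-SIRPa 4). Gadd45a, a stress gene that denervation and atrophy induce in muscle, was at 51.1, 55.2, 144 and 94.6 CPM in controls, 15.2, 20.2, 28.8 and 20.2 in anti-SIRPa mice and 18.4 to 21.8 in naive mice. All controls were above all anti-SIRPa mice, and the change was -2.03 ± 0.31 (adjusted p = 0.0158, 8 of 12 left-out fits). The imprinted RNA H19, abundant in developing and regenerating muscle, was at 254, 498, 391.8 and 442 CPM in controls and 111, 139, 226 and 130.3 in anti-SIRPa mice and changed by -1.39 ± 0.26 (adjusted p = 0.0257, 7 of 12 left-out fits). Fgf6, a growth factor made by muscle, was at 6.12, 3.02, 2.12 and 3.39 CPM in controls, 14.7, 14.2, 10.8 and 10.4 in anti-SIRPa mice and 13.8 to 23.1 in naive mice and changed by 1.77 ± 0.29 (adjusted p = 0.0169, 7 of 12 left-out fits). For both, all 4 anti-SIRPa mice lay outside the range of the controls.

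Of 40 nuclear genes of the respiratory chain 4 rose and 0 fell. In this list 39 fold changes were above 0 and the median was 0.47 (0.39 without control 3 to 0.66 without control 1). Uqcr10, a subunit of complex III, was at 34.6, 13.5, 20.4 and 24.7 CPM in controls and 43.9, 46.3, 66.3 and 43.7 in anti-SIRPa mice, with anti-SIRPa 3 highest and no overlap, and changed by 1.10 ± 0.24 (adjusted p = 0.0338, 3 of 12 left-out fits). Ndufb5 of complex I (0.74 ± 0.16 (adjusted p = 0.0332, 3 of 12 left-out fits)) and Cox7a1, the muscle form of a complex IV subunit (1.16 ± 0.28 (adjusted p = 0.0478, 2 of 12 left-out fits)), rose too. Of 13 mitochondrially encoded genes 0 passed by edgeR, with a median of 0.50 (0.25 without control 2 to 0.73 without control 1), while 4 had an unadjusted p under 0.05 and DESeq2 called 1. Of 26 genes of the TCA cycle and fatty acid oxidation 1 rose, the fatty acid transporter Cd36, and 0 fell, with a median of 0.35 (0.22 without control 2 to 0.59 without control 1). Cd36 was at 56.9, 24.2, 39.3 and 37.6 CPM in controls, 75.7, 75.8, 77.2 and 74.5 in anti-SIRPa mice and 62.3 to 77.2 in naive mice. The anti-SIRPa mice differed by less than 3 CPM among themselves and were all above the controls; the change was 0.94 ± 0.19 (adjusted p = 0.0289, 7 of 12 left-out fits).

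Among adipocyte genes 3 rose, and 2 of them were above the naive mice as well. Plin1, the coat protein of fat droplets, was at 15, 9.59, 29.6 and 12.2 CPM in controls, 35.4, 42.9, 54.5 and 46.5 in anti-SIRPa mice and 17.1 to 29.5 in naive mice, and the hormone adiponectin (Adipoq) at 8.68, 3.94, 17.4 and 10.8 CPM in controls, 23.1, 26.7, 30.1 and 33.9 in anti-SIRPa mice and 10.9 to 15.8 in naive mice. In each of these genes all anti-SIRPa mice were above all 8 other mice. Plin1 changed by 1.43 ± 0.30 (adjusted p = 0.0344, 5 of 12 left-out fits) and Adipoq by 1.46 ± 0.32 (adjusted p = 0.0375, 2 of 12 left-out fits). The adipocyte regulator Pparg changed by 1.08 ± 0.27 (adjusted p = 0.0487, 2 of 12 left-out fits), with control 1 above anti-SIRPa 1. Of 16 tested adipocyte genes 3 rose and 0 fell, with a median of 0.69 (0.57 without control 2 to 0.88 without control 1). Their mean log2 CPM was 5.10, 3.99, 4.90 and 4.64 in controls and 5.08, 5.41, 5.51 and 5.60 in anti-SIRPa mice, so control 1 was above anti-SIRPa 1 and control 2 was lowest.

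Among genes of peripheral nerve 3 rose. The Schwann cell genes Gldn, which clusters sodium channels at nodes (1.10 ± 0.22 (adjusted p = 0.0289, 6 of 12 left-out fits)), Pou3f1, a factor of myelination (1.10 ± 0.23 (adjusted p = 0.0317, 6 of 12 left-out fits)), and Sox10 (0.70 ± 0.18 (adjusted p = 0.0485, 1 of 12 left-out fits)) rose with no overlap between the groups. They were the called genes of 14, with 0 lower and a median of 0.32 (0.25 without anti-SIRPa 3 to 0.51 without control 1). Pou3f1 was at 2.15, 1.97, 1.89 and 1.88 CPM in controls and 3.996, 3.67, 4.98 and 4.303 in anti-SIRPa mice. The controls spanned less than 0.3 CPM. Among the largest increases of any gene were 3 more with roles in nerve or endocrine cells: Scg3, a granule protein, at 13.4, 3.94, 4.53 and 6.57 CPM in controls and 30.7, 31.1, 13.8 and 37.4 in anti-SIRPa mice (1.98 ± 0.38 (adjusted p = 0.0289, 7 of 12 left-out fits)), the neuropeptide Npy at 0.496, 0.657, 0.755 and 0.794 CPM in controls and 1.76, 1.996, 1.88 and 3.06 in anti-SIRPa mice (1.67 ± 0.33 (adjusted p = 0.0289, 7 of 12 left-out fits)), and Adcyap1r1, the receptor of the neuropeptide PACAP. Adcyap1r1 was at 3.47, 2.23, 2.87 and 3.03 CPM in controls, 8.23, 9.595, 11 and 10.4 in anti-SIRPa mice and 2.68 to 6.47 in naive mice. Each anti-SIRPa mouse was above all 8 other mice, and the change was 1.74 ± 0.26 (adjusted p = 0.0158, 8 of 12 left-out fits). The citrate transporter Slc13a5 showed the same order, at 1.65, 2.23, 0.604 and 1.66 CPM in controls, 5.88, 4.57, 3.25 and 5.94 in anti-SIRPa mice and 0.791 to 1.97 in naive mice (1.69 ± 0.40 (adjusted p = 0.0409, 3 of 12 left-out fits)).

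Other large changes outside these lists were in the same range. C1qtnf3, an adipokine related to C1q, was at 4.301, 18.8, 16.7 and 17.8 CPM in controls, 3.23, 2.705, 2.45 and 1.81 in anti-SIRPa mice and 2.13 to 3.51 in naive mice. All anti-SIRPa mice were below all controls and control 1 was far below the other controls; it changed by -2.49 ± 0.39 (adjusted p = 0.0158, 8 of 12 left-out fits). Igsf1, an immunoglobulin superfamily gene of the pituitary, was at 2.98, 1.44, 0.529 and 1.37 CPM in controls and 5.82, 6.31, 4.55 and 5.94 in anti-SIRPa mice and changed by 1.84 ± 0.40 (adjusted p = 0.0338, 4 of 12 left-out fits).

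**Figure D4:**
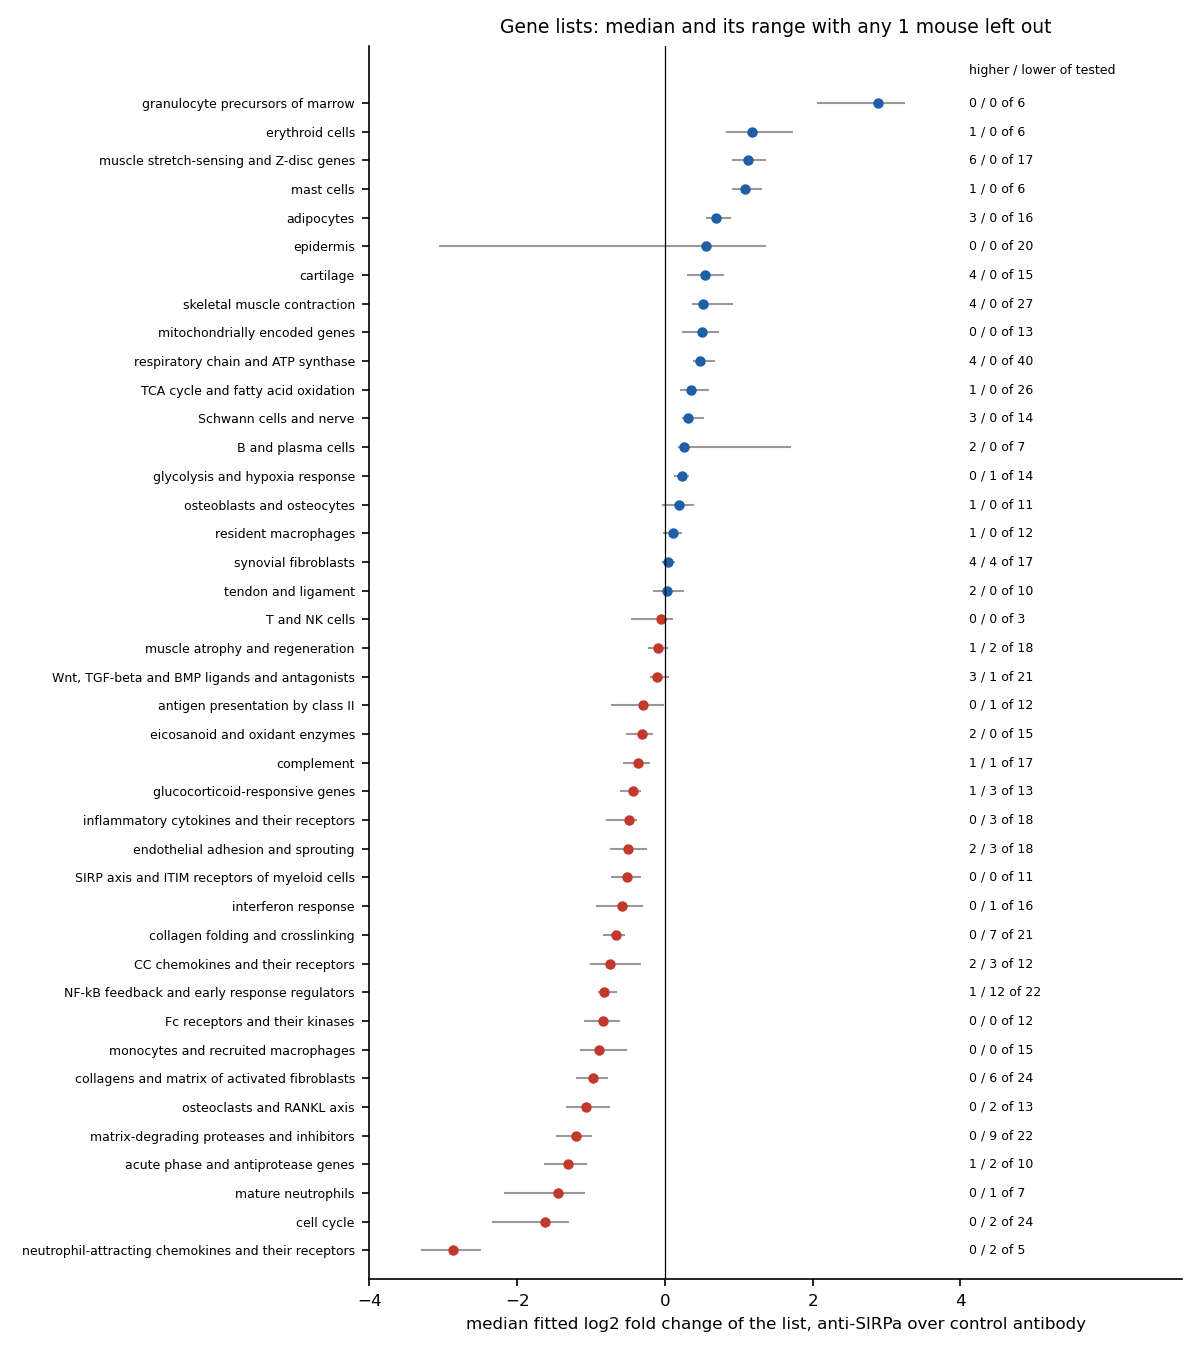
Points give the median fitted log2 fold change, anti-SIRPa over control antibody, of the tested members of each of 41 gene lists, red below 0 and blue above, and bars give the range of this median over the 12 fits that left out 1 mouse. The numbers at the right count the members called higher and lower, and the widest bar, from -3.04 to 1.36, belongs to epidermis.

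Skin and lymphoid lists gave little. Of 20 epidermal genes 0 passed by edgeR, with a median of 0.55 (-3.04 without anti-SIRPa 4 to 1.36 without control 1), so that its sign rested on anti-SIRPa 4. Of the 20, 0 had an unadjusted p under 0.05 and DESeq2 called 0. Their mean log2 CPM was 6.92, 5.23, 4.06 and 5.26 in controls and 3.37, -0.77, 3.49 and 8.16 in anti-SIRPa mice. Of 3 tested T and NK cell genes, of 14 in the list, 0 passed by edgeR, with a median of -0.05 (-0.44 without control 1 to 0.09 without anti-SIRPa 4); 0 had an unadjusted p under 0.05 and DESeq2 called 0. The class II antigen presentation list had 1 of 12 lower and 0 higher, with a median of -0.29 (-0.72 without anti-SIRPa 1 to -0.03 without control 3). The called gene was Fscn1, which does not encode a class II molecule (-1.65 ± 0.38, adjusted p = 0.0428, 1 of 12 left-out fits), and its groups overlapped. The interferon response list had 1 of 16 lower and 0 higher, with a median of -0.58 (-0.91 without anti-SIRPa 3 to -0.32 without control 2).

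**Figure D5:**
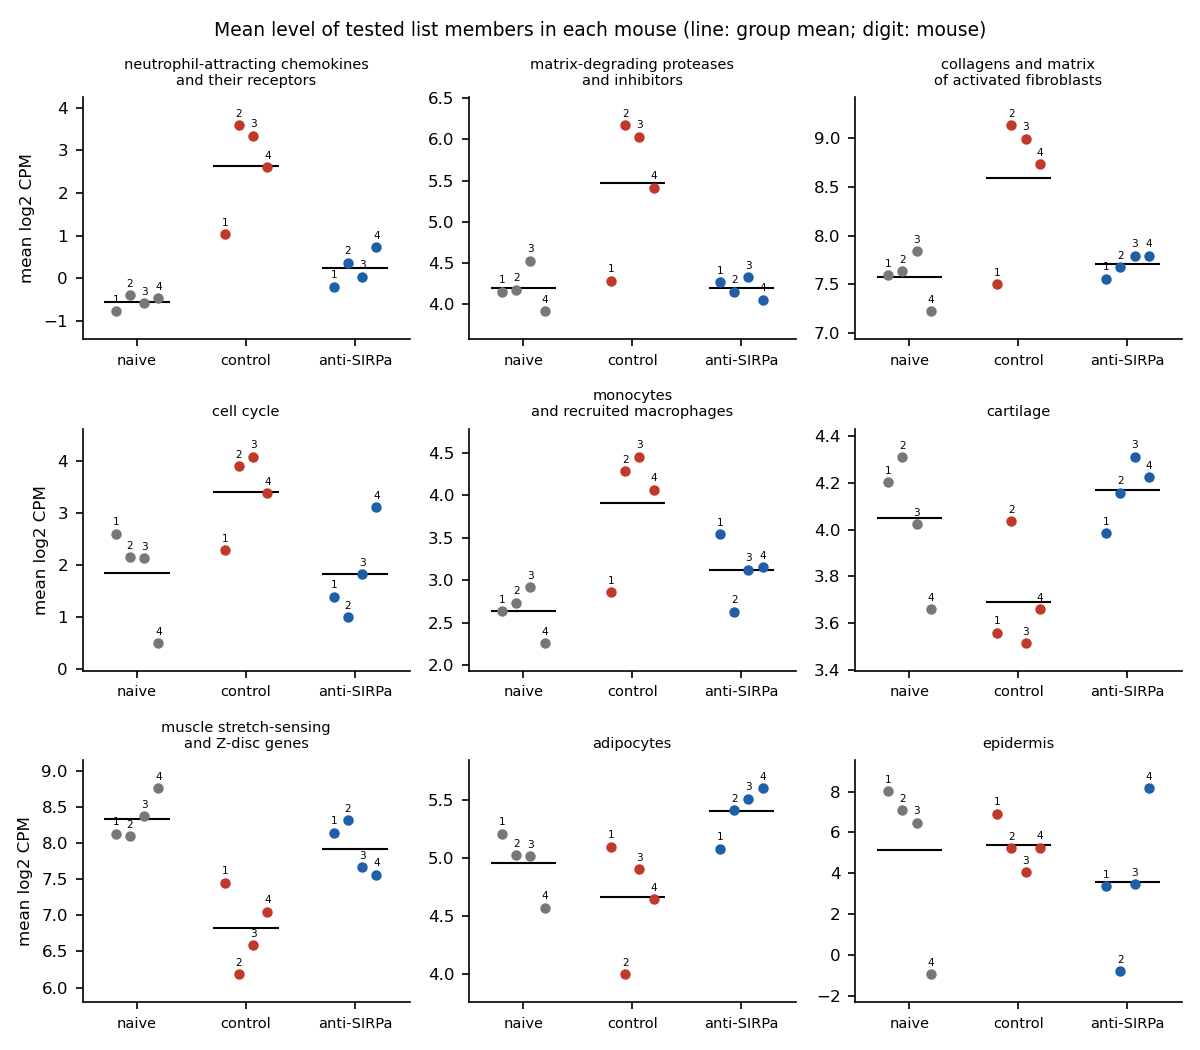
Mean log2 CPM of the tested members of 9 gene lists in each mouse, with the digit naming the mouse and the line giving the group mean. In the chemokine, protease and collagen lists controls 2 to 4 were above all anti-SIRPa and naive mice, and in the stretch-sensing muscle list the 4 anti-SIRPa mice, from 7.56 to 8.31, were above all controls. In the epidermis panel anti-SIRPa 4, at 8.16, was far above the rest of its group.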

How the data were processed

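RNA of joints from 12 mice was sequenced after a strand-specific library preparation, as the labels' protocols state. The authors deposited whole-number read counts per gene without normalization, on build GRCm38 per the submitters' processing notes. Which aligner, counter and strand setting they used is not given in the sources used here. Therefore antisense, overlapping and near-identical genes are uncertain. Of 52636 identifiers, 52489 matched GENCODE M21, and the rest held 0.0173% of counts. Each library is 1 animal, and no 2 libraries of a group agreed within sampling noise.

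Counts were filtered (filterByExpr), scaled by TMM and fitted with edgeR 4.0.16 (robust quasi-likelihood, R 4.3.3) to all 12 libraries, with anti-SIRPa minus control as contrast and an adjusted p under 0.05 over 16674 genes. CPM are TMM-scaled, and log2 CPM in list means used a prior count of 2. The SE of a fold change is its absolute value divided by the square root of the quasi-likelihood F statistic. Single library properties were compared with exact permutation tests. The pipeline was tested on simulated counts. DESeq2 1.42.0, limma-voom (limma 3.58.1), other scalings, filters, a replicate block and left-out libraries were the alternatives.

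Genes named were the 15 largest changes each way among called genes with non-overlapping groups and a mean log2 CPM of at least 1 (no numbered gene models or antigen receptor segments), up to 3 members of each of 41 lists with the smallest p, and Sirpa, Cd47, Ptpn6 and Ptpn11. Not each is described. The members and lists were chosen with earlier results of these data known.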

Additional observations from a re-analysis of the deposited data

Results flagged for a closer look

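In 14 of 300 groups of 4 mice tested for a single distant value (Dixon's test at the 95% level), 1 mouse stood apart from the other 3, where chance flags about 1 in 20 groups. Control 1 and anti-SIRPa 3 accounted for 5 of these each. In control 1 the log2 CPM of C1qtnf3 was 2.15, against 4.07 to 4.24 in the other controls, that of Ms4a7 was 1.14, against 3.16 to 3.45, that of Ccl8 was 0.97, against 3.65 to 3.99, and the mean of the synovial fibroblast list was 5.31, against 6.05 to 6.12. Igkc was -1.08 in control 1 and -2.81 in the other controls, which had no count. In anti-SIRPa 3, Acan was 5.93, against 5.27 to 5.36, Ccl24 was 1.56, against 2.204 to 2.24, Selp was 2.98, against 1.44 to 1.68, Uqcr10 was 6.06, against 5.46 to 5.54, and the mean of the SIRP axis list was 3.51, against 3.35 to 3.38. Nfkbiz was 3.44 in anti-SIRPa 1, against 3.95 to 4.04 in its group.

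Library properties were flagged as well. Control 2 had 6893969 counts, against 12361420 to 13416033 in the other controls. In anti-SIRPa 4 epidermal genes held 2.45% of counts, against 0.0054% to 0.0442%, and Gm26917 held 2.52%, against 1.68% to 1.77%.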

How the results depend on the processing

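With all 12 libraries the counts of called genes, of those changed at least 2-fold and of those with non-overlapping groups were 548, 299 and 431. They were 1892, 738 and 997 with DESeq2, 345, 190 and 323 with limma-voom, and 0, 0 and 0 with the 8 arthritic libraries alone, without controls 2 and 4, or without anti-SIRPa 2 and naive 4 (edgeR; 3284, 2247 and 3127 genes at an unadjusted p under 0.05). Leaving out 1 mouse gave 0 to 3976, 0 to 1498 and 0 to 1101. Of the edgeR calls 545 were also called by DESeq2 and 309 by limma-voom. The split into higher and lower, 265 and 283, was 221 and 124 with limma-voom, and 291 and 257 with DESeq2's size factors. Correlations of deviations between same-numbered mice were -0.13 to 0.10 between anti-SIRPa and control, and -0.80 to 0.21 over all pairs of groups. With 4 mice per group they cannot decide whether the replicate numbers pair mice, which the labels do not say. A fit with a replicate block called 78, 62 and 71. Over 102 named genes and all alternatives, of 2343 fold changes 1039 fell below the threshold, 20 passed it and 4 turned sign, all of the uncalled Chil3, which was 0.13 without anti-SIRPa 2 and naive 4 and -0.72 to 0.19 with 1 mouse left out. The cause of these changes was not tested. The medians of 8 lists changed sign in at least 1 setting.

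Depth limits the lowest genes: below the floor of 0.17 to 0.435 CPM, absence cannot be read, and control 2, with the fewest counts, has the highest floor. The floor covers counting error only, whereas the SEs of fold changes include the spread between mice. That spread was estimated over all 12 libraries, naive mice included, and not from the 8 compared mice alone.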

Other observations

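For some genes the anti-SIRPa mice lay outside the range of the naive mice as well as of the controls. Among called genes 20 were above all 8 other mice in every anti-SIRPa mouse (0.120% of tested genes) and 7 were below (0.0420%). Over all tested genes, called or not, these numbers were 69 (0.414%) and 36 (0.216%). The shares that chance alone would give were not computed, so these counts do not show an excess in either direction. The genes in this paragraph were chosen after their values were seen. Beside Igkc, Kit, Plin1, Adipoq, Phex, Dusp1, Adcyap1r1 and Slc13a5, the higher ones included Igha and genes of lipid handling, matrix and cell scaffold. Igkc and Igha had the largest fitted fold changes of these 20. The immunoglobulin gene Igha was at 2.21 to 8.88 CPM with anti-SIRPa, 0.331 to 1.05 in controls and 0.0703 to 1.4 in naive mice. Lipoprotein lipase (Lpl), which frees fatty acids from lipoproteins, was at 160.3 to 218 CPM with anti-SIRPa, 63 to 156 in controls and 128 to 142 in naive mice. Gelsolin (Gsn), which severs actin filaments, was at 4024 to 4776 CPM with anti-SIRPa, 1254 to 3337 in controls and 3607 to 3946 in naive mice. The fibulin Efemp1 was at 26.6 to 32.8 CPM with anti-SIRPa, 10.5 to 19.4 in controls and 18.3 to 23.4 in naive mice, Olfml2a at 147 to 168 CPM with anti-SIRPa, 58.3 to 109 in controls and 128 to 141 in naive mice and the kinase anchor Akap12 at 69.1 to 80.8 CPM with anti-SIRPa, 36 to 57.8 in controls and 50.8 to 64.6 in naive mice. For each of these genes the lowest anti-SIRPa mouse was above the highest mouse of both other groups.

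Of the 7 lower called genes, 3 are given here, also chosen after their values were seen, and they do not stand for a group. Lgr5, a receptor of R-spondins that marks stem cells in several tissues, was at 0.646 to 1.01 CPM with anti-SIRPa, 2.07 to 3.42 in controls and 1.15 to 2.31 in naive mice. Kdm2a, a histone demethylase, was at 94.1 to 99.1 CPM with anti-SIRPa, 119.7 to 138 in controls and 102 to 106 in naive mice, and Yeats4, a reader of acetylated histones, at 14.9 to 16.6 CPM with anti-SIRPa, 21.1 to 32.8 in controls and 17.9 to 21.9 in naive mice.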
